A study of Homo sapiens with 8 samples.

Results

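Sorafenib-resistant (SR) and parental (WT) cells were compared within 5 of the 8 libraries of the series, those in which KRT19 reached an FPKM of at least 100. KRT19 encodes keratin 19, an intermediate filament protein of bile duct and progenitor cells that many liver cancer cells also make, and ALB encodes albumin, the main secreted protein of hepatocytes. FPKM scales the fragments of a gene by the length of its transcript and by the size of the library. The 2 SR libraries, HepG2 SR replicate 1 and Huh7 SR replicate 2, were set against 3 WT libraries, both HepG2 WT replicates and Huh7 WT replicate 2.

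Both HepG2 and Huh7 are long-established human lines that the labels call hepatocellular carcinoma cells. The labels give HepG2 WT and Huh7 WT the genotype WT and the treatment control, and give HepG2 SR and Huh7 SR the genotype SR and the treatment sorafenib. SR cells were derived from each line by growth in a concentration gradient of sorafenib, an inhibitor of RAF kinases and of VEGF and PDGF receptors. No dose or duration is in the labels, and it is not stated whether the SR cells are a clone or whether sorafenib was present at harvest. Nothing states that replicates were separate cultures, so p-values measure the spread between these samples, which may be technical.

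The libraries were chosen on the KRT19 values themselves, which are given without a test. KRT19 stood at 759.6 FPKM in HepG2 WT replicate 1, 278.9 in HepG2 WT replicate 2 and 255.3 in HepG2 SR replicate 1. It stood at 154.9 in Huh7 WT replicate 2 and 177.6 in Huh7 SR replicate 2. The threshold fell in a wide gap: the lowest library inside it was Huh7 WT replicate 2, and the highest outside it was Huh7 SR replicate 1 at 2.37 FPKM, followed by Huh7 WT replicate 1 at 1.78 and HepG2 SR replicate 2 at 0.179. ALB ranged from 604.2 FPKM, in Huh7 WT replicate 2, to 3157 FPKM, in HepG2 WT replicate 2.

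**Figure D1:**
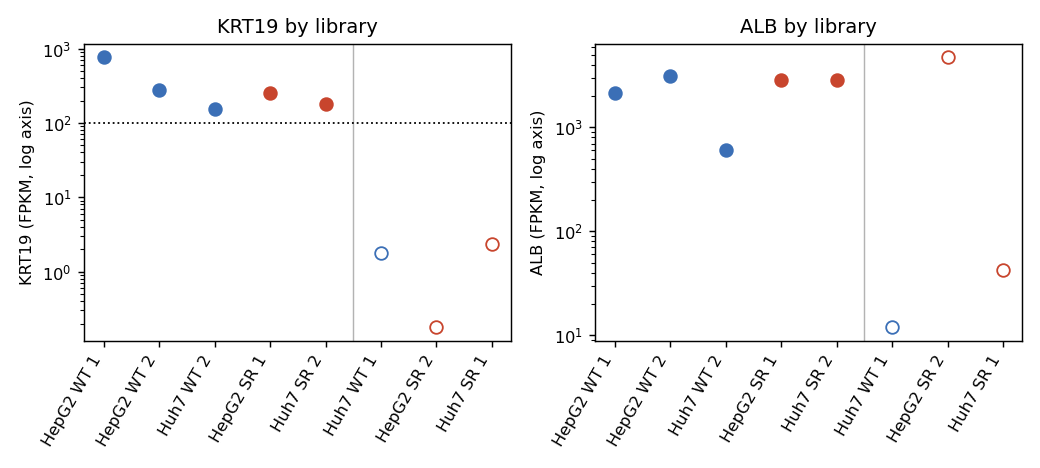
KRT19 and ALB (FPKM, log axes) in each of the 8 libraries, WT in blue and SR in red; filled points are the 5 libraries kept and open points the 3 left out, and the dotted line marks 100 FPKM. KRT19 was 154.9 FPKM or more in the libraries kept and 2.37 or less in the others, and ALB did not separate them, since HepG2 SR replicate 2 was at 4713 FPKM.

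The expression profile of the 5 libraries did not follow the labelled cell line. Across 63241 genes, which are not independent replicates, Pearson's r of log2(FPKM + 1) was 0.967 to 0.990 among them. Both replicate 2 libraries with a Huh7 label were in that range with the HepG2-labelled libraries among the 5. The library labelled Huh7 WT replicate 1 reached at most 0.913 with any of the 5 and the library labelled Huh7 SR replicate 1 at most 0.922. HepG2 SR replicate 2, though HepG2-labelled, reached at most 0.923 with any of the 5. The highest single r, 0.990, joined HepG2 SR replicate 1 with Huh7 SR replicate 2. The line names are therefore used below only as labels. Huh7 WT replicate 2 stood slightly apart from the other 4, at 0.967 to 0.969.

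Of 9 cancer-testis genes of the MAGE type, which the Huh7 replicate 1 libraries made at a summed 452.1 and 632.3 FPKM, none reached 1 FPKM in the 5 libraries (sums 0.0338 to 0.390), and MAGEA1, MAGEA4 and PAGE5 were listed at 0 in all 5. Fibroblast markers summed to 25.63 to 62.88 FPKM in WT and 42.1 and 44.28 in SR, nearly all of it ACTA2, and 5 of 8 were below 1 in every library. Endothelial markers summed to 0.787 to 1.46 FPKM in WT and 1.27 and 0.772 in SR. Leukocyte markers summed to 75.22 to 295.8 FPKM in WT and 906.8 and 1067 in SR, with LYZ as the main part and 3 of 8 below 1 in every library. The part of these cells in the results was not tested. FPKM carry no read totals, so sequencing depth is unknown, and 12829 to 13386 genes per library reached 1 FPKM.

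Aurora kinase A, the product of AURKA, builds the mitotic spindle and is most abundant late in the cell cycle. Genes of mitosis and of DNA replication are switched on together in dividing cells, largely through the MuvB and E2F complexes at short promoter elements, so their RNA levels tend to move as blocks. Sorafenib acts upstream of ERK, whose activity induces feedback genes such as DUSP5. In liver-derived cells a further layer of genes encodes secreted plasma proteins, apolipoproteins and metabolic enzymes.

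Promoter sequences of the 2 blocks of cell cycle genes are shown because these genes moved together in the comparison. They are the 120 bases before the RefSeq start (GRCh38.p14), 5′ to 3′ on the gene's own strand, for the 3 called genes of largest change in each list whose stretch holds the element searched. The elements were the CHR (TTTGAA) in the mitosis list and the E2F element (TTTCCCGC, TTTCGCGC, TTTGCCGC or TTTGGCGC) in the replication list, and IL11 was added for the AP-1 element (TGACTCA or TGAGTCA) as the named gene of largest fall that holds it. Capitals mark these elements and CCAAT on either strand, and no element overlapped another in these stretches.
PRC1 (chr15:90994536-90994655, minus strand): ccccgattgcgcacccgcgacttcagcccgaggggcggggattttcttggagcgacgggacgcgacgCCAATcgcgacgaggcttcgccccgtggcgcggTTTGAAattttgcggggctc
ASPM (chr1:197146670-197146789, minus strand): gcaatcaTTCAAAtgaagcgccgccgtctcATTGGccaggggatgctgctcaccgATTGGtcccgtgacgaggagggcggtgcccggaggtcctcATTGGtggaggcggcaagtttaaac
KIF11 (chr10:92593010-92593129, plus strand): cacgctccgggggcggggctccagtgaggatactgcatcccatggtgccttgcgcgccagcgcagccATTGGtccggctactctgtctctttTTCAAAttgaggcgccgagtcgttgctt
CDT1 (chr16:88803669-88803788, plus strand): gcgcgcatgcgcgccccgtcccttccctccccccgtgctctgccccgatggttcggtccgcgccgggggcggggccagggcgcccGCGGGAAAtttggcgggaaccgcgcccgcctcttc
MCM7 (chr7:100101398-100101517, minus strand): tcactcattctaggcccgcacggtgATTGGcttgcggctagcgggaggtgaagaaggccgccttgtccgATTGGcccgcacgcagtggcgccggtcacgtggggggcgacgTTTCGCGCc
RFC3 (chr13:33818029-33818148, plus strand): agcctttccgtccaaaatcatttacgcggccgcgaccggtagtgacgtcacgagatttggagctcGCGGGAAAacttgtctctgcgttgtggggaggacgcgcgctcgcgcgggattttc
IL11 (chr19:55370464-55370583, minus strand): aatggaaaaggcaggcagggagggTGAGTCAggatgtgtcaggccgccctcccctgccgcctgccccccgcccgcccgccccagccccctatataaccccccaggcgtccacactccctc

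Over the 250 bases before the start, on both strands, the CHR was found in 23 of 39 mitosis genes with a promoter in the table (59.0%), against 8.16% of the 9744 tested genes with one. The E2F element was found in 14 of 38 replication genes (36.8%), against 4.52% of tested genes, and CCAAT in 76.9% and 63.2% of the 2 lists, against 35.5%. These shares describe the lists, which were put together by function. Among all called genes the shares lay closer to the background: the CHR was in 11.8% of genes called higher and 4.59% of those called lower, the E2F element in 9.61% and 3.61%, and the AP-1 element in 2.62% and 3.93%, against 2.39% of tested genes. A match is a description of letters, not of binding.

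For the comparison of SR with WT, 13693 genes that reached 1 FPKM in 2 or more of the 5 libraries were tested with limma on log2(FPKM + 1). Genes are called here at the thresholds of the study, an unadjusted p below 0.05 and a log2 fold change of 0.5 or more in size, and rose or fell below means called in this sense. In SR, 383 genes rose, 2.8% of those tested, and 418 fell, 3.05%. None passed a Benjamini-Hochberg adjusted p of 0.05 (0.0%), and the smallest adjusted p by limma was 0.676. The 801 genes at an unadjusted p under 0.05 by limma are little more than that threshold lets through without any difference. In simulated data 4.80% of unchanged genes had p under 0.05. Every call is therefore provisional, and many of them may be false. After rescaling the libraries to a common sum the calls were 267 higher and 584 lower, 31.4% higher in place of 47.8%, and the median change of all genes went from -0.05 to -0.13. With the labelled line as a term there were 639 higher and 545 lower. Of the falls, 71 had both SR libraries below 1 FPKM and passed the filter only through WT, and of the rises, 37 passed only through SR, so these genes had to differ. Both SR libraries lay above all 3 WT libraries in 1322 genes (9.65%) and below all 3 in 1889 (13.8%). In each direction 1 of the 10 splits of 5 libraries into 2 and 3 has this order, so a share near 0.1 arises without any difference.

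The number of calls moved with single libraries. Without Huh7 SR replicate 2, 219 genes were called, and without HepG2 SR replicate 1, 333. Without Huh7 WT replicate 2 there were 1236 calls, and without HepG2 WT replicate 2 there were 1253. Of 29 gene lists below that held a call, 8 held none without HepG2 SR replicate 1, 6 without Huh7 SR replicate 2 and 3 without HepG2 WT replicate 1.

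AURKA (chr20:56369389-56392337, minus strand, GRCh38, the whole gene with introns) was among the genes with the largest rise. Its level was 10.2, 14.07 and 16.78 FPKM in HepG2 WT replicates 1 and 2 and Huh7 WT replicate 2, and 92.82 and 59.61 in HepG2 SR replicate 1 and Huh7 SR replicate 2. In bulk RNA such a difference in level cannot be told apart from a different share of cells that make the transcript. Both SR libraries were above all 3 WT libraries, and the lower of them was more than 3 times the highest WT library. The log2 fold change was 2.39 ± 0.33 (SE, 2 SR and 3 WT libraries; adjusted p = 0.676 by limma), and it stayed between 2.07 and 2.70 with any single library left out. In an exact permutation test of the 10 splits of 5 libraries into 2 and 3, the one-sided p was 0.1. Doubled, it gave a two-sided p of 0.2, the smallest that doubling allows. The study picked AURKA, DUSP5, GRB10, LIPH, MYOF and RND3 in part on the data of this series, so their differences are not independent evidence. AURKA was 2.85 higher in SR under the HepG2 label and 1.77 higher under the Huh7 label on the log2 scale.

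RNA of the ferritinophagy genes NCOA4 and FTH1 and the iron uptake genes TFRC and SLC11A2, which the study followed, did not pass the test. The study places the regulation in FTH1 protein and reports unchanged FTH1 mRNA after AURKA knockdown. RNA levels of SR and WT cells do not test that claim. NCOA4, the receptor that carries ferritin to autophagosomes, had 116.8, 101 and 48.38 FPKM in WT and 112.7 and 94.34 in SR, with a log2 difference of 0.31 ± 0.41. FTH1, the ferritin heavy chain, had 1545, 1507 and 1747 in WT and 1440 and 1043 in SR, with both SR libraries below all WT libraries and a log2 difference of -0.38 ± 0.36. The NCOA4 groups overlapped, and its difference was -0.07 without Huh7 WT replicate 2. The transferrin receptor TFRC had a difference of 0.37 ± 0.47, which was -0.06 without HepG2 WT replicate 1, and the iron importer SLC11A2 one of 0.28 ± 0.26. Adjusted p-values of these 4 genes by limma ran from 0.898 to 0.931. PTGS2, often used as a sign of ferroptosis, was at 0.03 FPKM or less in all 5 libraries and was not tested, as were MYOF and RND3. LIPH had a difference of -0.41 ± 0.28, and was called lower without Huh7 WT replicate 2 (-0.57) and with all 8 libraries and profile as a term (-0.72). In the fit to all 8 libraries, here and below, HepG2 SR replicate 2 is alone in its profile and carries no weight in the difference.

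Mitotic genes formed the block with the largest median. Of 45 tested, 17 rose and none fell, where 2.8% and 3.05% of all genes did. Their median log2 fold change was 1.17 against -0.05 over all genes. All 45 differences were positive, as were those of 6051 of all 13693 genes. Those that rose were CDK1, NUSAP1, NUF2, PRC1, NDC80, ASPM, CENPF, CDC25C, KIF11, PTTG1, NEK2, FOXM1, CCNB2, PLK4, CDC20, MKI67 and CKAP2. They span the mitotic entry kinase (CDK1) with its phosphatase CDC25C and cyclin CCNB2, the outer kinetochore (NUF2, NDC80), spindle motors and bundlers (KIF11, PRC1), and the transcription factor FOXM1. AURKA was kept out of this list.

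The WT libraries differed widely among themselves in these genes. The mean log2(FPKM + 1) over the list was 2.87 in HepG2 WT replicate 1, 4.12 in HepG2 WT replicate 2 and 2.36 in Huh7 WT replicate 2, against 4.37 and 4.10 in SR, so HepG2 WT replicate 2 lay between the SR libraries. HepG2 WT replicate 2 was also the highest WT library for CDK1, but lay below both SR libraries. CDK1 had 10.67, 37.24 and 6.86 FPKM in WT and 48.99 and 41.53 in SR. Its log2 fold change was 1.60 ± 0.60 (adjusted p = 0.840 by limma), and the call was lost without any library other than HepG2 WT replicate 2, at 1.13 to 1.72. Without HepG2 WT replicate 2, 43 of the 45 mitosis genes rose. Without HepG2 WT replicate 1 the count was 6, without Huh7 WT replicate 2 it was 11, and without HepG2 SR replicate 1 or Huh7 SR replicate 2 it was 2 or 4. The median stayed between 0.74 and 1.67 throughout, and with the labelled line as a term 37 rose.

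The genes whose promoters are printed above were picked among called genes, so that their direction is given by the choice, and their levels are a description. PRC1, which bundles antiparallel microtubules, had 9.04, 13.63 and 5.52 FPKM in WT and 28.71 and 22.52 in SR, a log2 fold change of 1.42 ± 0.38. ASPM, a spindle pole protein, had 2.01, 6.16 and 1.22 in WT and 7.68 and 9.61 in SR. KIF11, the motor that pushes spindle poles apart, had 3.25, 6.96 and 2.61 in WT and 13.12 and 9.79 in SR. The groups did not overlap in any of the 3 genes.

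Of 43 replication genes tested, 15 rose and none fell, against 2.8% of all genes that rose, with a median of 0.87 and 41 positive differences. They included 4 subunits of the MCM helicase (MCM3, MCM5, MCM6, MCM7), the loading factors CDT1 and ORC1, and also CDC45 and GINS4. Among them were further primase and polymerase genes (PRIM1, POLE, POLE2), the clamp loader subunit RFC3, and the nucleotide enzymes TK1 and RRM2. The medians under the 2 labels were 0.84 for HepG2 and 0.93 for Huh7, whereas those of the mitosis list were 0.90 and 1.77. The mean log2(FPKM + 1) of the replication list was 2.92, 3.79 and 2.77 in WT and 4.17 and 3.73 in SR, and HepG2 WT replicate 2 again reached the lower SR library.

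MCM3 had the largest change of the replication list, with 16.36, 36.59 and 18.07 FPKM in WT and 88.34 and 68.98 in SR. Its log2 fold change was 1.77 ± 0.39 (adjusted p = 0.676 by limma), and the call held with any single library left out. CDT1, the licensing factor, had 4.24, 9.04 and 2.10 FPKM in WT and 15.3 and 10.86 in SR. MCM7 had 20.91, 37.58 and 15.96 in WT and 75.97 and 39.82 in SR, and RFC3 had 5.78, 12.52 and 5.61 against 16.91 and 14.73, with both SR libraries on top in each. The count of replication genes that rose was 30 without HepG2 WT replicate 2, 5 without HepG2 WT replicate 1, 2 without HepG2 SR replicate 1 and 6 without Huh7 SR replicate 2. With the labelled line as a term it was 25, and with all 8 libraries and the profile as a term 27.

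PCLAF (chr15:64364311-64387687), a partner of the replication clamp PCNA, was among the 10 largest rises. It had 8.67, 12.53 and 4.61 FPKM in WT and 39.76 and 30.47 in SR, with a log2 fold change of 1.99 ± 0.40. It was called with any library left out. The histone list was not part of this block: of 9 tested genes none was called, and the median was -0.16. These libraries were made from polyadenylated RNA, and most replication-dependent histone transcripts have no poly(A) tail.

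Inhibitors of the cell cycle did not move as a block. Of 20 tested, 4 fell and 1 rose, where 3.05% and 2.8% of all genes did. Their median was -0.16 against -0.05 over all genes, and -0.09 or -0.12 without HepG2 SR replicate 1 or Huh7 SR replicate 2. CDKN2B, which encodes p15 and passed the filter only through WT, had 2.19, 3.45 and 2.78 FPKM in WT and 0.544 and 0.345 in SR, a log2 fold change of -1.39 ± 0.28. CDKN2A, its neighbor that encodes p16 and ARF, had 4.06, 5.35 and 5.34 in WT and 1.95 and 2.21 in SR, a log2 fold change of -0.94 ± 0.27. BTG2 and SESN2 also fell. CDKN2C, which encodes p18 and is itself switched on in dividing cells, rose by 0.86 ± 0.35 on the log2 scale, a call that was lost without any library other than HepG2 WT replicate 2 (0.61 to 1.11). SESN2 had 9.96, 8.88 and 32.77 FPKM in WT and 6.09 and 3.10 in SR, and its log2 fold change of -1.51 ± 0.54 was -0.95 without Huh7 WT replicate 2 and no longer called, at -1.12, without Huh7 SR replicate 2.

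**Figure D2:**
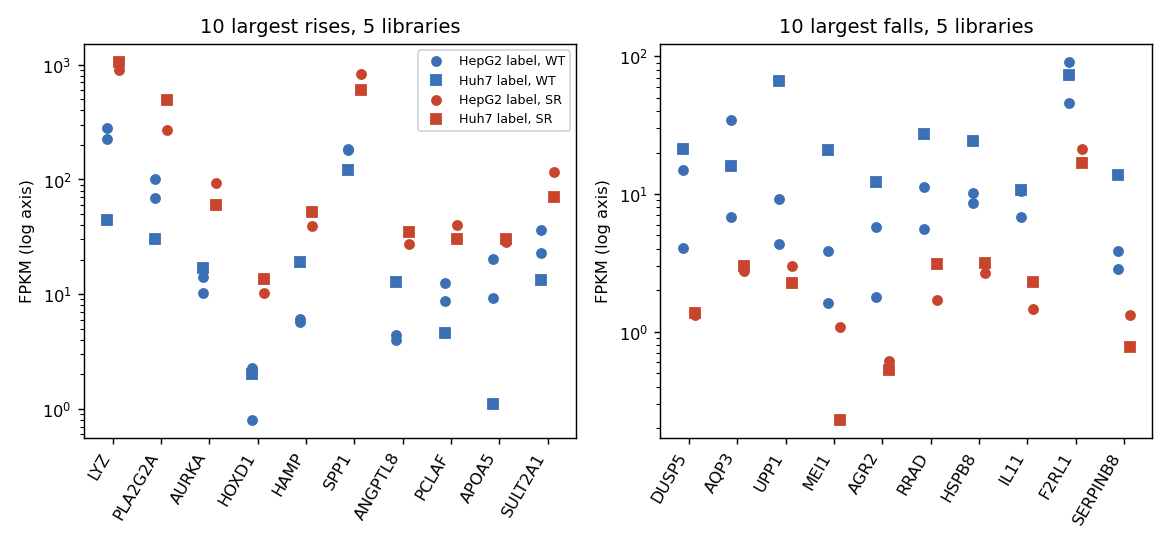
FPKM (log axis) of the 10 largest rises (left) and 10 largest falls (right) in each of the 5 libraries; circles are HepG2-labelled, squares Huh7-labelled, blue WT and red SR. By the rule that chose these genes both SR libraries lie on one side of all 3 WT libraries, and Huh7 WT replicate 2 is the extreme WT library for several, such as UPP1 at 65.73 FPKM and APOA5 at 1.10 FPKM.

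Beside AURKA and PCLAF, the largest rises were mainly in genes for secreted and liver proteins. LYZ, which encodes the antibacterial enzyme lysozyme, had 224.4, 279.6 and 44.23 FPKM in WT and 890.5 and 1058 in SR. PLA2G2A, a secreted phospholipase, had 68.84, 101.7 and 30.39 in WT and 271.4 and 489.3 in SR. SPP1, which encodes osteopontin, had 179, 182.8 and 120.5 in WT and 822.9 and 606.5 in SR. These 3 genes were abundant in every library, and the lower SR library was at least 2 times the highest WT library in each. Their log2 fold changes were 2.78 ± 0.72, 2.59 ± 0.52 and 2.15 ± 0.34, and no call was lost with a library left out. LYZ is also on the leukocyte list, where none of the other 3 tested members was called.

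HAMP (chr19:35280716-35285143) encodes hepcidin, the liver hormone that blocks iron export. It had 6.13, 5.69 and 18.93 FPKM in WT and 39.18 and 52.48 in SR. ANGPTL8, a secreted regulator of lipoprotein lipase, had 3.99, 4.39 and 12.84 in WT and 27.3 and 34.95 in SR. In both genes Huh7 WT replicate 2 was the highest WT library and still lay below the SR libraries. The log2 fold changes were 2.24 ± 0.48 and 2.15 ± 0.46, and without Huh7 WT replicate 2 they were 2.75 and 2.62, with an adjusted p by limma of 0.0297 for each, which ran up to 1.0 over the 16 settings. APOA5, which activates lipoprotein lipase, had 20.1, 9.20 and 1.10 FPKM in WT and 28.48 and 30.32 in SR. Its log2 fold change of 1.99 ± 0.81 fell to 1.05 without Huh7 WT replicate 2 and was not called without either SR library (1.94 and 2.03). SULT2A1, a sulfotransferase of steroids and bile acids, had 22.89, 36.37 and 13.38 in WT and 117.3 and 69.79 in SR. HOXD1, a homeobox transcription factor, had 0.803, 2.28 and 2.02 in WT and 10.22 and 13.5 in SR, and shares its position with the antisense gene HAGLR, whose reads cannot be told apart from it without strand.

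The largest fall among protein-coding genes of the naming rule was in DUSP5, a phosphatase that ERK signaling induces and that acts on ERK. It had 14.86, 4.06 and 21.28 FPKM in WT and 1.32 and 1.36 in SR, a log2 fold change of -2.38 ± 0.57 (adjusted p = 0.698 by limma), and it was called with any library left out. Of 23 ERK feedback and target genes, 4 fell and none rose, where 3.05% and 2.8% of all genes did. The list median was -0.25. The others were FOSL1, JUNB and EPHA2. FOSL1, an AP-1 subunit, had 36.78, 14.88 and 38.94 in WT and 10.6 and 10.28 in SR. JUNB had 13.64, 26.73 and 13.26 in WT and 9.09 and 8.14 in SR. The rest of the list did not move as a block: DUSP6 had 29.79, 27.11 and 11.95 FPKM in WT and 24.46 and 24.12 in SR, and SPRY4 and ETV5 had differences of -0.29 ± 0.34 and -0.04 ± 0.33. The count that fell was 1 without HepG2 SR replicate 1 or without Huh7 SR replicate 2, and 7 without Huh7 WT replicate 2.

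IL11, an interleukin of the IL-6 family, had 6.78, 10.46 and 10.72 FPKM in WT and 1.47 and 2.30 in SR. F2RL1, the protease-activated receptor PAR2, had 91.15, 46.14 and 73.69 in WT and 21.29 and 16.86 in SR. Both were called with any library left out, at -1.83 ± 0.31 and -1.78 ± 0.35. CXCL8, the neutrophil chemokine interleukin 8, had 21.06, 22.7 and 26.49 in WT and 5.74 and 11.82 in SR. HBEGF, a ligand of EGFR, had 5.84, 3.11 and 7.39 in WT and 1.89 and 2.27 in SR, and EGFR itself was low, with 2.55, 2.66 and 1.74 in WT and 0.595 and 1.002 in SR. Each of these 5 genes was lower in both SR libraries than in all 3 WT libraries, as were 13.8% of all genes tested. The rule that chose IL11 and F2RL1 requires this order, and CXCL8, HBEGF and EGFR were named among called genes after their values were seen.

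Of 19 receptor kinase genes and adaptors tested, GRB10, AXL and EGFR fell and none rose, where 3.05% and 2.8% of all genes did. GRB10, an adaptor that dampens insulin and IGF receptors, had 13.32, 10.62 and 15.45 FPKM in WT and 3.61 and 3.77 in SR. Its log2 fold change was -1.58 ± 0.28, called with any library left out. AXL, a receptor tyrosine kinase of GAS6, had 10.42, 4.26 and 6.93 in WT and 2.16 and 2.98 in SR, and was not called without HepG2 SR replicate 1 (-0.97). AQP3, a water and glycerol channel, had 34.33, 6.81 and 15.87 in WT and 2.76 and 2.995 in SR.

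HSPB8, a small heat shock protein of the BAG3 complex, had 8.58, 10.2 and 24.37 FPKM in WT and 2.69 and 3.14 in SR, a log2 fold change of -1.84 ± 0.43. It was the only one of 20 heat shock genes that was called, where 3.05% of all genes fell. AGR2, a disulfide isomerase of mucin-making cells that passed the filter only through WT, had 5.72, 1.79 and 12.19 in WT and 0.613 and 0.528 in SR. RRAD, a small GTPase, had 5.58, 11.27 and 27.15 in WT and 1.71 and 3.12 in SR, and was not called without HepG2 SR replicate 1 (-1.67). For HSPB8, AGR2 and RRAD Huh7 WT replicate 2 was the highest library.

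Among the 10 largest falls, 3 shrank by over 1.5 times on the log2 scale without Huh7 WT replicate 2. UPP1, uridine phosphorylase, had 65.73 FPKM there, 9.24 and 4.31 in HepG2 WT and 2.98 and 2.27 in SR. Without that library its log2 fold change went from -2.09 to -1.03, that of MEI1 from -2.04 to -1.16 and that of the serpin gene SERPINB8 from -1.69 to -1.10. UPP1 was not called without HepG2 WT replicate 1 or either SR library (-1.95 to -2.38), MEI1 not without either SR library (-1.66 and -2.41) and SERPINB8 not without Huh7 SR replicate 2 (-1.50).

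NRF2 is the transcription factor of the response to oxidants and electrophiles. Of 24 of its targets and regulators tested, 5 rose and none fell, where 2.8% and 3.05% of all genes did. The list median was 0.47. The 5 were the aldo-keto reductases AKR1C1, AKR1B10 and AKR1C2, thioredoxin (TXN) and NFE2L2, which encodes NRF2. AKR1C1 (chr10:4963253-4983283) had 78.76, 93.5 and 99.38 FPKM in WT and 369.3 and 257.4 in SR, a log2 fold change of 1.76 ± 0.31 that was called with any library left out. AKR1C genes are close paralogs that can share reads. AKR1B10 had 56, 20.47 and 38.17 in WT and 141.9 and 85.94 in SR, and NFE2L2 had 48.93, 48.46 and 51.97 in WT and 89 and 70.35 in SR. Classical targets did not all follow: NQO1 had 244.8, 164.8 and 66.37 in WT and 362.8 and 239 in SR, GCLM had 9.48, 10.97 and 28.84 against 13.64 and 11.98, and HMOX1 35.17, 15.62 and 8.12 against 17.09 and 15.02. The count was 1 without HepG2 SR replicate 1.

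Of 23 genes of ferroptosis and its defence, ACSL4 and TXN rose and none fell, where 2.8% and 3.05% of all genes did. The list median was 0.04, and -0.16 without HepG2 SR replicate 1. None of the 23 rose after rescaling to a common sum or without HepG2 WT replicate 2. ACSL4, which loads polyunsaturated fatty acids into phospholipids and favors ferroptosis, had 61.45, 13.95 and 34.38 FPKM in WT and 84.68 and 75.19 in SR. Its log2 fold change of 1.33 ± 0.54 was 0.78 without HepG2 WT replicate 2, and the call was lost without that library or either SR library (0.78 to 1.42). GPX4, which reduces lipid peroxides, was 160.4, 196.6 and 216.7 in WT and 237.8 and 226.6 in SR, a difference of 0.29 ± 0.30. SLC7A11, the cystine importer, had 2.59, 1.44 and 26.48 in WT and 5.31 and 4.19 in SR, with overlapping groups. Of 23 iron genes, HAMP and transferrin (TF) rose, against 2.8% of all genes. TF had 131.9, 88.88 and 26.04 in WT and 158.2 and 211.4 in SR.

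**Figure D3:**
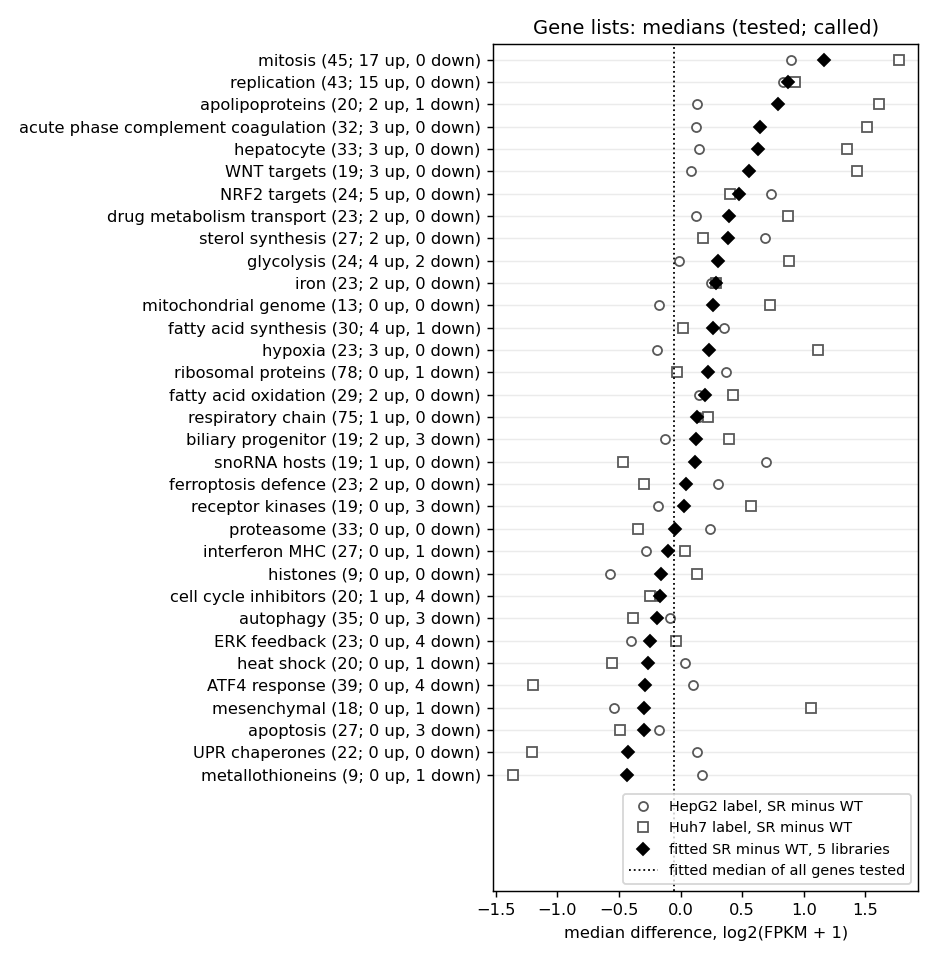
Median difference of each gene list, in log2(FPKM + 1), over its tested genes: black diamonds the fit to 5 libraries, open circles SR minus WT under the HepG2 label and open squares under the Huh7 label, the dotted line the fitted median of all genes (-0.05). Counts in the labels are genes tested, called higher and called lower; mitosis (1.17) and replication (0.87) have the largest fitted medians, and liver and stress lists differ between the labels.

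Lists of liver function had positive medians that came mostly from the Huh7-labelled pair. The median of 33 hepatocyte genes was 0.63, with 0.15 under the HepG2 label and 1.35 under the Huh7 label. For 32 acute phase, complement and coagulation genes the values were 0.65, 0.13 and 1.51, and for 20 apolipoproteins and lipoprotein genes 0.79, 0.14 and 1.61. The mean log2(FPKM + 1) of the hepatocyte list was 3.94 in Huh7 WT replicate 2 and 5.36 to 5.74 in the other 4 libraries. Without Huh7 WT replicate 2 the hepatocyte median was 0.09 and the acute phase median 0.23. The difference between the labels was not tested, since the Huh7 label had 1 library a group.

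Few of these genes passed the test, where 2.8% of all genes rose and 3.05% fell. Of the hepatocyte list 3 rose, TF and NR1H4 among them. The genes that rose were HAMP, SERPINA3 and MBL2 in the acute phase list and ANGPTL8 and APOA5 in the lipoprotein list, where PLTP fell. NR1H4, the bile acid receptor FXR, had 4.48, 14.03 and 4.67 FPKM in WT and 19.79 and 13.49 in SR. PLTP, the phospholipid transfer protein, had 51.2, 35.87 and 30.91 in WT and 20.59 and 20.52 in SR, a log2 fold change of -0.87 ± 0.30 that was not called without HepG2 WT replicate 1 or either SR library (-0.67 to -0.87). Without HepG2 WT replicate 2, 8 hepatocyte and 11 acute phase genes rose, and without HepG2 SR replicate 1 no hepatocyte gene was called. Among 23 genes of drug metabolism and transport, SULT2A1 and GSTA1 rose.

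Of 19 WNT target genes tested, NOTUM, SP5 and GLUL rose and none fell, where 2.8% and 3.05% of all genes did. The list median was 0.56, and 0.08 and 1.43 under the HepG2 and Huh7 labels. The median was 0.07 without Huh7 WT replicate 2, 1 gene rose without HepG2 SR replicate 1, and none was called with all 8 libraries and profile as a term. NOTUM, a secreted enzyme that inactivates WNT ligands, had 52.32, 111.6 and 79.62 FPKM in WT and 183.1 and 227.6 in SR, a log2 fold change of 1.39 ± 0.37 called with any library left out. SP5 had 40.58, 47.69 and 14.82 in WT and 80.8 and 77.81 in SR. LGR5 had 39.64, 49.6 and 4.57 in WT and 47.87 and 64.67 in SR, and AXIN2 51.79, 52.56 and 17.98 against 35.48 and 29.71, neither of them called.

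Stress lists went the other way in the Huh7-labelled pair. None of 22 chaperones of the unfolded protein response was called, and their median was -0.43, with 0.14 under the HepG2 label and -1.21 under the Huh7 label. The 39 genes of the ATF4 response, which is induced by lack of amino acids, had medians of -0.29, 0.10 and -1.20. SESN2, JDP2, SARS1 and DDIT4 fell, against 3.05% of all genes. HSPA5, the main chaperone of the endoplasmic reticulum, had 305.2, 437.3 and 695.1 FPKM in WT and 335.2 and 203.3 in SR. TRIB3, an ATF4 target, had 60.74, 57.24 and 270.8 in WT and 94.87 and 55.68 in SR. In both genes Huh7 WT replicate 2 was the highest library and the groups overlapped. Without that library the median of the ATF4 list was 0.04, and without Huh7 SR replicate 2 none of its genes was called, against 8 that fell without HepG2 WT replicate 1.

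Metallothioneins, small proteins that bind zinc and copper, had a median of -0.43, with 0.18 under the HepG2 label and -1.36 under the Huh7 label. Of 9 tested, MT2A fell, where 3.05% of all genes did. It had 599.7, 369.4 and 594.7 FPKM in WT and 309.3 and 231 in SR, a log2 fold change of -0.93 ± 0.36. The call was lost without HepG2 WT replicate 1 or either SR library (-0.72 to -1.14).

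Calls in energy metabolism were scattered over single genes. Of 24 glycolysis genes, LDHA, ALDOC, PFKFB4 and PKLR rose and PFKP and HK1 fell, where 2.8% and 3.05% of all genes did. None of the 24 rose without Huh7 SR replicate 2, 1 rose without HepG2 SR replicate 1 or after rescaling to a common sum, and 2 without Huh7 WT replicate 2. LDHA, lactate dehydrogenase A, had 82.75, 141.3 and 46.14 FPKM in WT and 195.5 and 231.2 in SR, a log2 fold change of 1.37 ± 0.46 that was not called without either SR library (1.25 and 1.49). PFKP, the platelet form of phosphofructokinase, had 22.32, 12.97 and 20.7 in WT and 7.63 and 7.66 in SR, a log2 fold change of -1.15 ± 0.31 called with any library left out. PKLR is the liver and red cell pyruvate kinase, and HK1 is a hexokinase of most other tissues. HK1 had 1.07, 0.699 and 1.48 in WT and 0.0849 and 0.248 in SR, and passed the filter only through WT. With a filter of 1 FPKM in all 5 libraries 3 glycolysis genes rose and 1 fell.

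Among 23 hypoxia genes, with a median of 0.23, CA9, BNIP3 and INSIG2 rose, against 2.8% of all genes. None rose without HepG2 WT replicate 1 or without Huh7 SR replicate 2, where the median was -0.28, and 1 rose without Huh7 WT replicate 2, where it was -0.09. CA9, a carbonic anhydrase, had 6.08, 8.59 and 2.11 FPKM in WT and 8.29 and 30.88 in SR, so the groups overlapped and Huh7 SR replicate 2 stood far above the rest. Its log2 fold change of 1.53 ± 0.61 was 0.64 without Huh7 SR replicate 2 and 2.42 without HepG2 SR replicate 1, and the call was lost without Huh7 SR replicate 2, without HepG2 WT replicate 1 (1.66) and without Huh7 WT replicate 2 (1.06).

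Lists of lipid metabolism are set against 2.8% of all genes that rose and 3.05% that fell. TMEM97 and EBP rose among 27 sterol genes, and ACSL4, SCD, MLXIPL and GPAM rose and FADS3 fell among 30 genes of fatty acid synthesis. Without HepG2 SR replicate 1 none of these genes rose, and without HepG2 WT replicate 1 no sterol gene did, while 7 sterol genes rose without Huh7 SR replicate 2. SCD, the stearoyl-CoA desaturase, had 73.16, 172.5 and 94.45 FPKM in WT and 282.9 and 186.7 in SR. EBP, an isomerase of cholesterol synthesis, had 26.33, 40.79 and 22.92 in WT and 85.4 and 45.68 in SR. TMEM97 had a log2 fold change of 1.26 ± 0.41, lost without HepG2 WT replicate 1 or HepG2 SR replicate 1 (1.02 and 0.97). FADS3 had one of -1.04 ± 0.41, which was -0.65 without Huh7 WT replicate 2 and was not called without either SR library (-0.85 and -1.24). PPARGC1A and HADH rose among 29 genes of fatty acid oxidation, PPARGC1A by 0.85 ± 0.32, lost without HepG2 WT replicate 1 or either SR library (0.61 to 1.01).

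Of 35 autophagy genes OPTN, ATG16L1 and TFE3 fell and none rose, where 3.05% of all genes fell, with a median of -0.19. None of them was called without Huh7 SR replicate 2. OPTN, a receptor for damaged mitochondria, had 29.25, 30.73 and 56.39 FPKM in WT and 20.07 and 18.43 in SR, a log2 fold change of -0.91 ± 0.35 that was not called without either SR library (-0.85 and -0.97). Of 27 apoptosis genes 3 fell and none rose, with a median of -0.30, and the count was 0 without Huh7 SR replicate 2 and 1 without HepG2 SR replicate 1. Among them PMAIP1, a BH3-only protein that promotes apoptosis, had 5.02, 6.20 and 8.53 in WT and 3.05 and 3.64 in SR, a log2 fold change of -0.78 ± 0.30, and TNFRSF10A, a receptor of TRAIL, had 14.31, 8.29 and 14.2 against 7.62 and 5.18.

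Among 19 biliary and progenitor genes SPP1 and SOX9 rose and KRT7, SOX4 and CLDN4 fell, where 2.8% and 3.05% of all genes did. SOX9 had 48.32, 35.82 and 15.64 FPKM in WT and 57.62 and 78.41 in SR, while KRT7, another keratin of bile ducts that passed the filter only through WT, had 0.887, 1.30 and 4.75 in WT and 0.209 and 0.202 in SR. The log2 fold change of KRT7, -1.28 ± 0.46, was -0.79 without Huh7 WT replicate 2 and was not called without either SR library (-1.27 and -1.28). No gene of this list fell without either SR library. Of 18 mesenchymal genes AXL was called, with a median of -0.29, and -0.54 and 1.06 under the HepG2 and Huh7 labels. Without Huh7 WT replicate 2, 6 of the 18 fell, with a median of -0.60, and without HepG2 SR replicate 1 none did. In the interferon and MHC list of 27 genes OAS1 fell by 0.90 ± 0.31 on the log2 scale, lost without HepG2 WT replicate 1 or either SR library (-0.67 to -0.99).

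The lists of basic cell functions are set against 2.8% of all genes that rose and 3.05% that fell. Of 75 nuclear respiratory chain genes COX5B rose, with 44.92, 16.99 and 24.22 FPKM in WT and 56.13 and 55.8 in SR, and a call lost without HepG2 WT replicate 2 or either SR library (0.74 to 1.05). None of 33 proteasome genes and none of the 13 protein genes of the mitochondrial genome was called. Of 78 ribosomal protein genes RPS18 was called lower, with 67.4, 59.91 and 487.8 FPKM in WT and 7.11 and 62.84 in SR. Its groups overlapped, and the call was lost without HepG2 SR replicate 1 (-0.99) or Huh7 WT replicate 2 (-1.50), while the log2 fold change was -3.97 without Huh7 SR replicate 2. Without Huh7 WT replicate 2, 4 ribosomal protein genes and 3 respiratory chain genes rose. Of 19 snoRNA host genes SNHG4 rose, with 10.34, 13.21 and 16.79 in WT and 29.21 and 32.07 in SR, and it overlaps MATR3 on the same strand, which fell. Without Huh7 WT replicate 2, 11 of the 19 rose and the median went from 0.11 to 0.68, and with all 8 libraries and profile as a term 5 rose. EEF1G fell by 1.25 ± 0.31 on the log2 scale, while an overlapping readthrough gene of the same strand, ENSG00000255508, rose by 3.54 ± 0.63, so how reads were divided between them is uncertain.

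**Figure D4:**
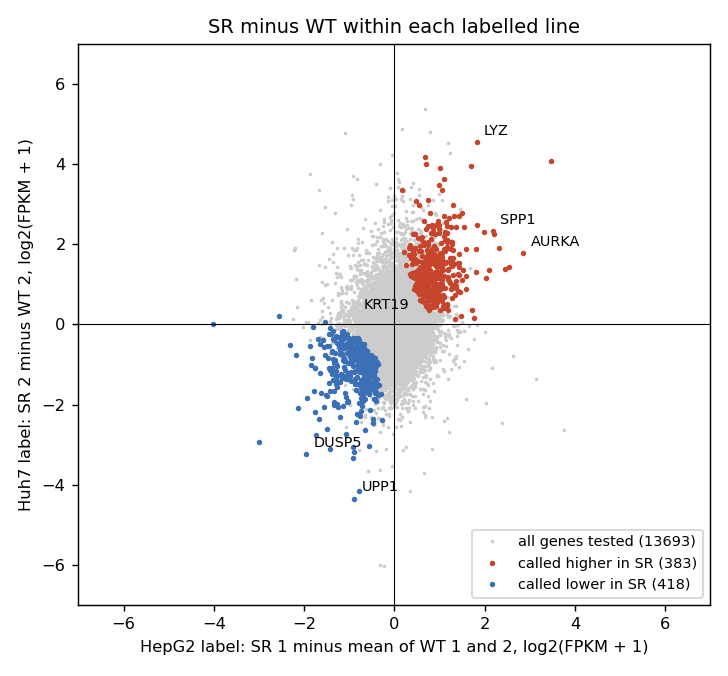
SR minus WT in log2(FPKM + 1) under the HepG2 label (x axis, HepG2 SR replicate 1 minus the mean of HepG2 WT replicates 1 and 2) and under the Huh7 label (y axis, Huh7 SR replicate 2 minus Huh7 WT replicate 2) for each of 13693 genes, with genes called higher in red and lower in blue. Called genes lie mainly in the quadrants of equal sign, which the call itself favors, and the spread along the Huh7 axis is the wider one.

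The differences under the 2 labels share no library and were set side by side without a test. Under the HepG2 label 229 genes were at least 1 higher and 275 at least 1 lower in SR on the log2 scale, and under the Huh7 label 1146 and 1151. In both at once 112 genes were higher, 0.818% of those tested, and 68 were lower, 0.497%, while 41 went in opposite directions. AURKA, PCLAF, MCM3, CDK1, SPP1, LYZ and AKR1C1 were at least 1 higher under both labels, and DUSP5, IL11, F2RL1, GRB10 and AQP3 at least 1 lower under both. The difference of UPP1 was -0.89 under the HepG2 label and -4.35 under the Huh7 label.

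**Figure D5:**
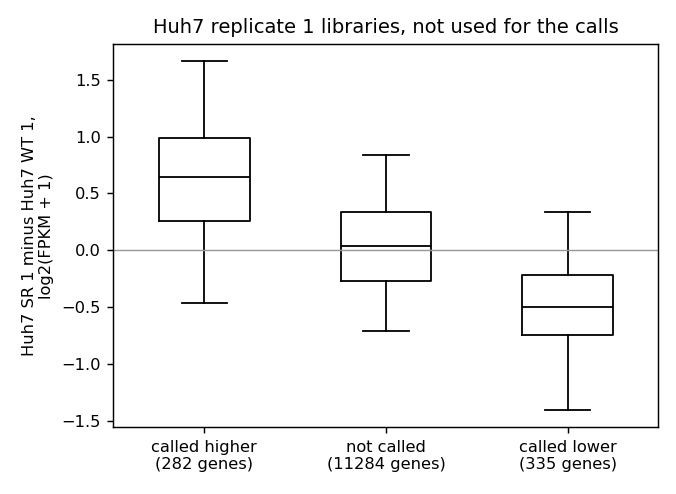
Huh7 SR replicate 1 minus Huh7 WT replicate 1 in log2(FPKM + 1), for genes called higher, not called and called lower in the 5 KRT19-high libraries that reached 1 FPKM in this pair; boxes span the quartiles, the line is the median, and whiskers reach the 5th and 95th percentiles. The medians are 0.65, 0.04 and -0.50.

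Huh7 SR replicate 1 and Huh7 WT replicate 1 have low KRT19 and entered neither the choice of libraries nor the calls, and their difference is given as a description of 2 libraries. Of the 383 genes called higher, 282 reached 1 FPKM in this pair, and 167 of them (59.2%) were at least 0.5 higher in SR on the log2 scale, against 16.3% of all 11901 genes measured there. Of the 418 called lower, 335 reached 1 FPKM, and 166 (49.6%) were at least 0.5 lower, against 12.3%. The median differences were 0.65 and -0.50, against 0.03 over all genes.

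AURKA was 19.67 FPKM in Huh7 WT replicate 1 and 129.5 in Huh7 SR replicate 1, a log2 difference of 2.66. The study picked AURKA, DUSP5 and GRB10 from comparisons that included the Huh7 libraries, so their differences in this pair are not independent of that choice. The differences of PCLAF, MCM3 and ACSL4 were 2.34, 1.38 and 2.68, and those of F2RL1, HSPB8, DUSP5 and GRB10 were -1.72, -1.44, -1.30 and -1.05. HepG2 SR replicate 2, the remaining SR library, was not set against a WT library. It had 50.5 FPKM of AURKA, 38.24 of PCLAF, 129.1 of MCM3 and 3.66 of ACSL4. F2RL1 and HSPB8 were at 4.96 and 3.90 there. GRB10, however, was at 14.14, within the range of the WT libraries, and DUSP5 was at 131.2, above every WT library. Other differences in this pair were 0.39 for CDK1, 0.47 for LYZ, 0.35 for AKR1C1 and -0.31 for IL11, and the mean log2(FPKM + 1) of the mitosis list was 4.52 in WT and 4.73 in SR. That of the replication list was 3.69 in WT and 4.59 in SR. HAMP, PLA2G2A, SULT2A1, SPP1 and APOA5 were at 0.299 FPKM or less in both libraries, RRAD and HOXD1 were listed at 0 in both, and AGR2, at 99.04 and 99.96 FPKM, had a difference of 0.01.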

How the data were processed

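Polyadenylated RNA was sequenced after preparation with the NEBNext Ultra kit. The authors deposited 1 FPKM value per gene and library, without pooling, and used edgeR for their own comparison. The submitters' processing notes name fastp 0.20.0 and GRCh38. The aligner, counter and annotation are not given in the sources used here, nor is the counting stated to use strand. The labels put all libraries in a single batch. Of 63241 identifiers, 62666 had a symbol and 58228 were in GENCODE release 29 (GRCh38), which gave gene positions. Promoters came from RefSeq (GRCh38.p14). Depth is unknown: too few low values lay at whole multiples of 1 read to recover counts.

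FPKM were tested as log2(FPKM + 1), a scale that understates the change of low genes, with limma 3.58.1 in R 4.3.3 (lmFit, eBayes with trend) on 5 libraries with 3 residual degrees of freedom. The filter was 1 FPKM in 2 libraries. Calls used an unadjusted p under 0.05 and a log2 fold change of 0.5, and adjusted p-values are Benjamini-Hochberg over all 13693 genes. Under each label, SR minus WT was a difference of mean log2 values, with no test. Simulated data held 200 changed genes among 13693. A log2 change of 1 was called in 84.8% and passed the adjusted p in 13.6%, and a change of 2 in 100% and 87.7%. Of unchanged genes 4.80% had p under 0.05. Each gene was drawn independently with the spread that limma fitted. The simulation therefore cannot show how the test behaves where blocks of genes shift together between libraries, as the mitosis list did among the WT libraries.

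Named genes were those the study discusses, the 10 largest rises and 10 largest falls among called protein-coding genes with a symbol, groups that did not overlap and a mean of at least 5 FPKM in the higher group, the called member of largest rise and of largest fall in each gene list, and KRT19 and ALB. Other list members are named after their values were seen. A few genes that the rule names are not reported here. The libraries, members and lists were chosen with earlier results of these data known. Lists are described by counts and medians, with no set test. Alternatives were another pseudocount (0.1), other filters, a common sum (TPM), quantile normalization, the labelled line or replicate number as a term, no trend, a cutoff of 1, all 8 libraries with expression profile as a term, and each library left out. In the fit to all 8 libraries, HepG2 SR replicate 2 is alone in its profile and adds nothing to the SR minus WT difference. List counts under these alternatives were added after seeing the data. Python 3.11.15, pandas 2.3.3 and matplotlib 3.10.9 made tables and figures.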

Additional observations from a re-analysis of the deposited data

Results flagged for a closer look

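HepG2 WT replicate 2 listed 38276 genes above 0 FPKM and the other 4 libraries 27188 to 29071, so it stood off from the next library by 0.830 of the full spread, above the Dixon 95% critical value of 0.71. Chance marks about 1 in 20 such groups. At 1 FPKM or more the count was 13386 in that library and 12829 to 13330 in the others. KRT19 went in opposite directions under the 2 labels, -0.85 in SR under HepG2 and 0.20 under Huh7 on the log2 scale. That difference was not tested, and KRT19 chose the libraries.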

How the results depend on the processing

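AURKA stayed called in every setting run. With one library left out, called genes ranged from 219 to 1253, those higher from 120 to 693, those lower from 99 to 719, and those at an adjusted p under 0.05 from 0 to 4. The 4, without Huh7 WT replicate 2, were HAMP, ANGPTL8, ENSG00000277702 and HECW2-AS1. A cutoff of 1 left 338 calls, 197 higher and 141 lower. All 8 libraries with expression profile as a term gave 1204, 636 of them lower, and the labelled line as a term 639 higher. In the former fit HepG2 SR replicate 2 has a profile of its own and no weight in the difference. Genes at least 1 higher under both labels numbered 213 with a pseudocount of 0.1 and 76 or 254 without HepG2 WT replicate 1 or 2. Those lower numbered 183 with that pseudocount, 138 after rescaling to a common sum and 60 or 105 without HepG2 WT replicate 1 or 2. The other libraries could not be left out of these counts, since each is alone in its group. Quantile normalization gave 440 higher and 373 lower. With a library left out NCOA4 ranged from -0.074 (without Huh7 WT replicate 2) to 0.553, TFRC from -0.064 (without HepG2 WT replicate 1) to 0.723, and KRT19 from -1.11 to 0.034 (without HepG2 WT replicate 1). Deviations of samples with the same number correlated at 0.09 and those with the same labelled line at 0.106. Neither was taken as pairs in the main fit, and the differences under each label rest on the label alone. With the replicate block 690 genes were called, 329 higher and 361 lower. Fits without 1 SR library leave a lone SR library that is assumed to vary like the others. The cause of these shifts was not tested.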
